A study of Mus musculus with 4 samples.

Results

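The chemokine ligands are the secreted or membrane-bound proteins that attract leukocytes through G protein-coupled receptors. In the gene count table, 46 of 54532 genes were chemokine ligands, chosen as protein-coding genes whose names begin with Ccl or Cxcl and a number, together with Xcl1, Cx3cl1, Pf4 and Ppbp. The rule itself uses gene names and no measured value, although it was written with earlier results of these data known. The 46 genes carry 40 symbols, and 7 of them lie on unplaced scaffolds of the mouse genome.

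Transcripts were counted by bulk RNA-seq in alveolar macrophages (AMs), which reside in the airspaces of the lung, purified from female wild-type mice, and the study's methods give young adult animals of a BALB/c background. The control group held 2 libraries from mice that received no tumor cells. The tumor group held 2 libraries made 2 weeks after the inoculation of 4T1, a murine breast carcinoma line that is injected into the mammary fat pad and spreads to the lung. The labels name no deleted gene and no drug in either group. They do not say whether each library came from 1 mouse or a pool, so that p-values measure only the spread between these libraries. That spread was small, with a coefficient of variation beyond counting noise of 0.03 in edgeR. Whether it holds the variation between mice is not known. The study describes AMs isolated from the same kinds of mice for both immunofluorescence and RNA-seq, and gives the stained cells as CD45+ CD11b- CD11c+ SiglecF+, while its methods for the RNA-seq say that AMs were purified and name no gate. Such a gate would leave out CD45- cells (fibroblasts, endothelial and epithelial cells and hepatocytes), CD11b+ cells (neutrophils, most eosinophils and monocytes) and cells without SiglecF (dendritic cells, T, B and NK cells and basophils).

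Chemokines are named after the spacing of their first cysteines. CXC ligands with the ELR motif (Cxcl1, Cxcl2, Cxcl3, Cxcl5, Ppbp and mouse Cxcl15) attract neutrophils, most of them through CXCR2, whereas CC ligands attract monocytes, lymphocytes, eosinophils and dendritic cells through receptors of the CCR family. AMs are a main source of chemokines in the airspace, and many of these genes are induced by NF-kB after microbial or inflammatory stimuli. Ccl17 and Ccl22 are known from dendritic cells and alternatively activated macrophages, and recruit CCR4-bearing T cells, among them regulatory T cells.

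Total counts ranged from 16167147 to 19205737 per library, and libraries of 1 group correlated at 0.992 to 0.994 in log2 CPM, a gene's counts scaled to a common library size, against 0.905 between groups. CPM values are on TMM-scaled library sizes throughout. All 14 AM identity markers were detected in every library, and 12 of them were lower in tumor libraries, with a summed level of 16427 to 16572 CPM in control and 12565 to 12707 CPM in tumor libraries. Markers of other cells were higher in the tumor libraries, with 10 of 10 neutrophil genes (summed level 44.2 to 44.3 CPM in control, 3688 to 3716 CPM in tumor), 5 of 5 eosinophil genes (0.38 to 0.533 CPM against 2634 to 2677 CPM) and all 6 basophil and mast cell genes (0.267 to 0.317 CPM against 64.0 to 75.0 CPM) called higher. Elane, Prg3, Mcpt8, Prss34, Ms4a2 and Fcer1a of these lists had no count in either control library. All 9 hepatocyte genes in the table were also higher (0.213 to 0.253 CPM against 691 to 700.4 CPM), and 6 of them had no count in either control library. In bulk RNA, fewer cells of a type and less RNA per cell cannot be told apart, so each fold change below refers to the purified sample as a whole, and the part of these other cells in it was not tested.

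The comparison of tumor with control libraries asks which chemokine ligands the purified AMs express and which of them differ with a distant tumor. Of the 46 chemokine ligands, 24 passed the filter on low counts and were tested. Among those 24, 14 were lower and 4 were higher in tumor than in control libraries by edgeR's quasi-likelihood test (adjusted p under 0.05, Benjamini-Hochberg over all 14256 genes tested). The 18 ligands called are 75.0% of those tested, against 53.8% of all genes tested. Lower calls made up 58.3% of the tested ligands and 24.8% of all genes, and higher calls 16.7% and 29.0%. The median log2 fold change was -0.34 over the ligands and 0.02 over all genes. At least 2-fold lower were 5 ligands (3.01% of all genes), namely Cxcl13, Pf4, Cxcl3, Cxcl10 and Ccl9, and at least 2-fold higher were 4 ligands (12.9% of all genes), namely Ccl17, Ccl22, Ccl5 and Cxcl12. The levels of the 2 groups did not overlap for 19 of the 24 ligands and for 75.1% of all genes. Scaling the libraries on the AM identity genes in place of TMM moved the median of all genes by 0.49 on the log2 scale, and 9 ligands were then higher and 9 lower. The 4 higher ligands and the falls of Cxcl1, Cxcl3, Cxcl10, Cxcl13, Cxcl14, Ccl3, Ccl9, Cx3cl1 and Pf4 stayed called under that scaling, though at -0.09 for Ccl3, -0.19 for Cxcl14 and -0.30 for Cx3cl1, while the smaller differences of Cxcl2, Ccl6, Ccl2 and Ccl7 turned to higher values in tumor libraries.

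**Figure D1:**
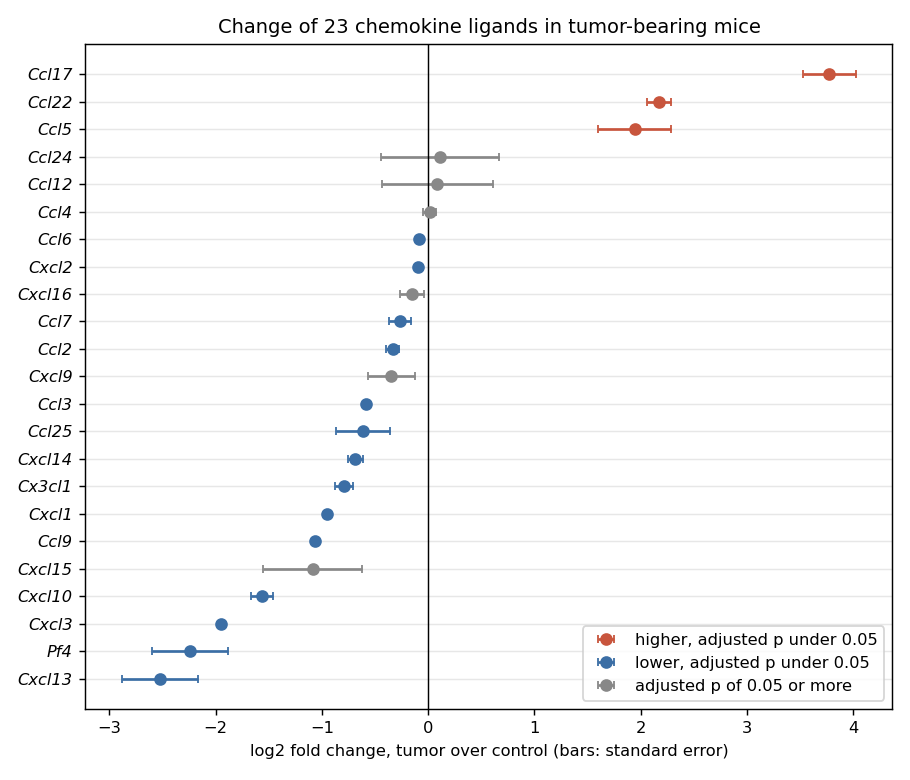
Log2 fold change (tumor over control) of 23 tested chemokine ligands, with bars for the standard error and colours for the call (n = 2 libraries per group, Cxcl12 not drawn because its control counts were at the floor). Ccl17 sits at 3.77 and Cxcl13 at -2.52, and most other ligands lie left of 0 on TMM-scaled libraries.

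A few ligands made up nearly all chemokine RNA. Chemokine ligands took 1.01% and 0.998% of all counts in control and 0.847% and 0.866% in tumor libraries. Of these ligand counts, 97.1% and 97.0% in control and 96.9% and 97.0% in tumor libraries came from Cxcl2, Ccl6, Cxcl1, Ccl3, Ccl9 and Cxcl3. Per gene length, the order in control libraries was Cxcl2 (1929 ± 19.7 RPKM, SD, n = 2), Ccl6 (1733 ± 11.7 RPKM), Ccl3 (869 ± 13.4 RPKM), Cxcl1 (649 ± 6.24 RPKM), Ccl9 (178 ± 1.22 RPKM), Cxcl3 (128 ± 0.254 RPKM) and Ccl4 (79.3 ± 0.934 RPKM), with no overlap between neighbours in this order. In tumor libraries Cxcl2 (1810 ± 17.7 RPKM) and Ccl6 (1637 ± 41.8 RPKM) led again, whereas Cxcl3 stood at 33.1 ± 0.418 RPKM, below Ccl4 at 80.03 ± 1.03 RPKM. By counts, Cxcl2 ranked 11th of all genes in each control library, and 9th and 10th in tumor libraries.

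**Figure D2:**
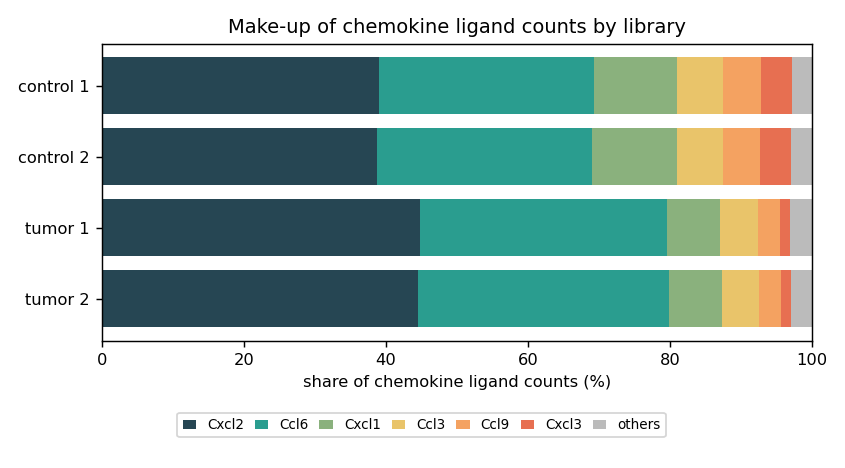
Share of chemokine ligand counts (%) taken by each of the 6 leading ligands and by all others in each library, 1 stacked bar per library and not corrected for gene length. Cxcl2 takes 39.0% and 38.7% in control and 44.8% and 44.5% in tumor libraries, and the segments of Cxcl1, Ccl9 and Cxcl3 are narrower in the tumor bars.

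The summed level of all ligands was 10312 and 10228 CPM in control and 8294 and 8469 CPM in tumor libraries. Without Cxcl2 and Ccl6 it was 3168 and 3171 CPM in control and 1692 and 1710 CPM in tumor libraries. On TMM-scaled libraries these 2 leading ligands thus differed little, while the rest of the set was lower as a sum. With scaling on AM identity genes Cxcl2 and Ccl6 were higher in tumor libraries, at 0.40 and 0.41 on the log2 scale.

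The neutrophil-attracting ELR CXC ligands did not move as 1 block. Of the 4 tested, Cxcl1, Cxcl2 and Cxcl3 were lower in tumor libraries and Cxcl15 was not called. Cxcl3 had 8405 and 7057 counts in control and 1987 and 2292 in tumor libraries, that is, 448 ± 0.887 CPM against 116 ± 1.46 CPM (SD, n = 2). All control values of Cxcl3 lay far above the tumor values, and it fell 3.87-fold (log2 fold change -1.95 ± 0.031 SE, edgeR adjusted p = 1.63e-27). Cxcl1, the mouse chemokine also called KC, had 22662 and 19342 counts in control and 10718 and 12488 in tumor libraries (1217 ± 11.7 CPM against 628 ± 12.4 CPM). It fell 1.94-fold, again without overlap of the groups (log2 fold change -0.96 ± 0.022, edgeR adjusted p = 4.42e-24). Cxcl2, also called MIP-2, had 75334 and 62518 counts in control and 64364 and 73945 in tumor libraries (3990.1 ± 40.8 CPM against 3743 ± 36.6 CPM). Its groups did not overlap in CPM, but the fall was 1.07-fold (log2 fold change -0.09 ± 0.015, edgeR adjusted p = 7.4e-06). With total counts as library sizes the value was -0.03 (edgeR adjusted p = 0.158), and scaling on AM identity genes gave 0.40.

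The ratio of Cxcl2 to Cxcl3 within a library, which does not depend on scaling, was 8.96 and 8.86 in control and 32.4 and 32.3 in tumor libraries. The ratio of Cxcl2 to Cxcl1 was 3.32 and 3.23 in control and 6.01 and 5.92 in tumor libraries. Both ratios separated the groups by far more than the libraries of a group differed, so the 3 related genes changed unequally. Cxcl2 and Cxcl3 transcripts share 126 windows of 50 bases, 5.84% of the windows of Cxcl2, while Cxcl1 shared none with any other gene.

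Cxcl15, also called lungkine and known from lung epithelium, had 20 and 22 counts in control and 13 and 8 in tumor libraries. The groups did not overlap, but the difference missed the threshold (log2 fold change -1.09 ± 0.47, edgeR adjusted p = 0.052), and the adjusted p ranged from 0.032 without tumor replicate 1 to 0.346 without control replicate 2. It also passed with limma-voom (adjusted p = 0.0455) and, in edgeR, with no filter (0.0466) and with protein-coding genes alone (0.0417). Of 4 club cell genes 2 were lower (summed level 83.1 to 87.0 CPM in control, 30.3 to 32.3 CPM in tumor), and of 5 tested alveolar type 2 cell genes 3 were lower (224 to 225 CPM against 193 to 198 CPM). Scgb1a1 led the first sum and Abca3 the second, and without them the sums were 11.04 to 13.6 CPM in control against 8.36 to 9.76 CPM in tumor libraries, and 10.99 to 11.2 CPM against 8.55 to 9.73 CPM. None of the 10 genes on these lists was at 0 in the control libraries, and their part in the level of Cxcl15 was not tested. Cxcl5 (5, 1, 2 and 4 counts) and Ppbp (1 count, in tumor replicate 1) were too low to test.

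The 250 bases before the RefSeq transcription start of Cxcl1, Cxcl2 and Cxcl3 are shown because these neighbours on chromosome 5 are related in sequence and differed unequally, and that of Ccl17 because it had the largest rise among ligands with a fitted fold change. They lie on the plus strand of GRCm38.p6 at chr5:90890995-90891244 (Cxcl1), chr5:90903649-90903898 (Cxcl2), chr5:90785851-90786100 (Cxcl3) and chr8:94810203-94810452 (Ccl17). Capitals mark matches on either strand to the NF-kB consensus, to TATAAA, to GCGTG (the core of the AHR response element, CACGC on the other strand) and to TTCNNNGAA (the STAT motif, the same on both strands).
Cxcl1: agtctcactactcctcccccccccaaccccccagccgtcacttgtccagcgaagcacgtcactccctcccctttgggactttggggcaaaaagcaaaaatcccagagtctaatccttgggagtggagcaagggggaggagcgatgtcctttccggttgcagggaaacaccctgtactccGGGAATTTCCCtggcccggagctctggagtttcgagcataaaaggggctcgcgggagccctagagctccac
Cxcl2: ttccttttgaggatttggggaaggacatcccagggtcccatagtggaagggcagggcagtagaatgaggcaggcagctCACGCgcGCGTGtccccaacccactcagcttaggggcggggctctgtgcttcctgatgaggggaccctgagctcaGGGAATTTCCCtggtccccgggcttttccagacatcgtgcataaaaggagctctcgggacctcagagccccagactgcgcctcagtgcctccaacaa
Cxcl3: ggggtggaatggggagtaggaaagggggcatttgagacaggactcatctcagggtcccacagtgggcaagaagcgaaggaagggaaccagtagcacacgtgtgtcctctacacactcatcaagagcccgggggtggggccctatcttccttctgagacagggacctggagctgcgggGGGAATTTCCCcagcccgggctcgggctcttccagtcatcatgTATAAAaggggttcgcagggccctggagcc
Ccl17: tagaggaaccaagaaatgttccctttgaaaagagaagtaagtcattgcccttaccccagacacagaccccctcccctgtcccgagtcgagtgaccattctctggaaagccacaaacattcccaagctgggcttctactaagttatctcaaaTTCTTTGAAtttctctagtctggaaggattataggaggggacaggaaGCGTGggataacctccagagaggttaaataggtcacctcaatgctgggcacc

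All 3 ELR CXC promoters held the same 11 bases, GGGAATTTCCC, which match the NF-kB consensus on both strands. Counted back from the start, it lay at -71 to -61 in Cxcl1, -97 to -87 in Cxcl2 and -73 to -63 in Cxcl3. Cxcl3 held TATAAA at -30 to -25, Cxcl2 held GCGTG on each strand at -172 to -168 and -165 to -161, and Ccl17 held TTCNNNGAA at -99 to -91 and GCGTG at -52 to -48. Over their whole length, Cxcl2 and Cxcl3 matched in 58.7% of aligned columns, Cxcl1 and Cxcl2 in 52.0%, and Cxcl1 and Cxcl3 in 52.7%, while Ccl17 matched these 3 in 46.7% to 48.1%. The same NF-kB match stood in Cxcl2, whose RNA barely differed on TMM-scaled libraries, and in Cxcl3, which fell most of the 3. Its part in either level was not tested.

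Promoter sequences from RefSeq were matched for 18 of the 24 tested ligands, and those of Ccl2, Ccl4, Ccl5, Ccl7, Ccl24 and Cxcl16 were not analysed here. The NF-kB consensus occurred in 5 of the 18 (Ccl9, Cxcl1, Cxcl2, Cxcl3 and Cxcl10) and in 7.25% of 32851 mouse promoters of this length. TATAAA occurred in 8 of 18 (12.4% of all promoters), GCGTG in 6 of 18 (28.2%) and TTCNNNGAA in 2 of 18, Ccl17 and Cxcl14 (7.02%). A match is a description of letters in the window and shows no binding.

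In the clusters of chemokine genes given here, fold changes were unequal, and on chromosomes 8 and 11 also of opposite direction. Not every pair of neighbours differed clearly. In a further cluster on chromosome 11, Ccl2 and Ccl7 were both lower (log2 fold change -0.34 and -0.26). Coordinates are for GRCm38, and the coordinates of all 46 ligands in the table are identical to those of GENCODE release M21. On chromosome 5, 7 ligands lie on the plus strand within 146.6 kb, in the order Cxcl5, Ppbp, Pf4 (chr5:90772435-90773383), Cxcl3 (chr5:90786103-90789600), Cxcl15 (chr5:90794534-90803067), Cxcl1 (chr5:90891241-90893115) and Cxcl2 (chr5:90903871-90905938). Along the 5 tested members the log2 fold change went from -2.24 at Pf4 over -1.95, -1.09 and -0.96 to -0.09 at Cxcl2, of which that of Cxcl15 was not called. The standard errors of Pf4 (0.36) and Cxcl15 (0.47) were wider than their distance from the next value. On chromosome 11, 5 ligands lie within 138.9 kb, namely Ccl5 (chr11:83525778-83530518), Ccl9 (chr11:83572919-83578636), Ccl6 (chr11:83587882-83593087), Ccl3 (chr11:83647844-83649355) and Ccl4 (chr11:83662584-83664683), and only Ccl5 among them was higher in tumor libraries. On chromosome 8, Ccl22 (chr8:94745590-94751699), Cx3cl1 (chr8:94772009-94782427) and Ccl17 (chr8:94810453-94812036) lie within 66.4 kb on the plus strand. Cx3cl1 fell and stands between Ccl22 and Ccl17, which rose, at 20309 bases from the first and 28025 bases from the second.

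**Figure D3:**
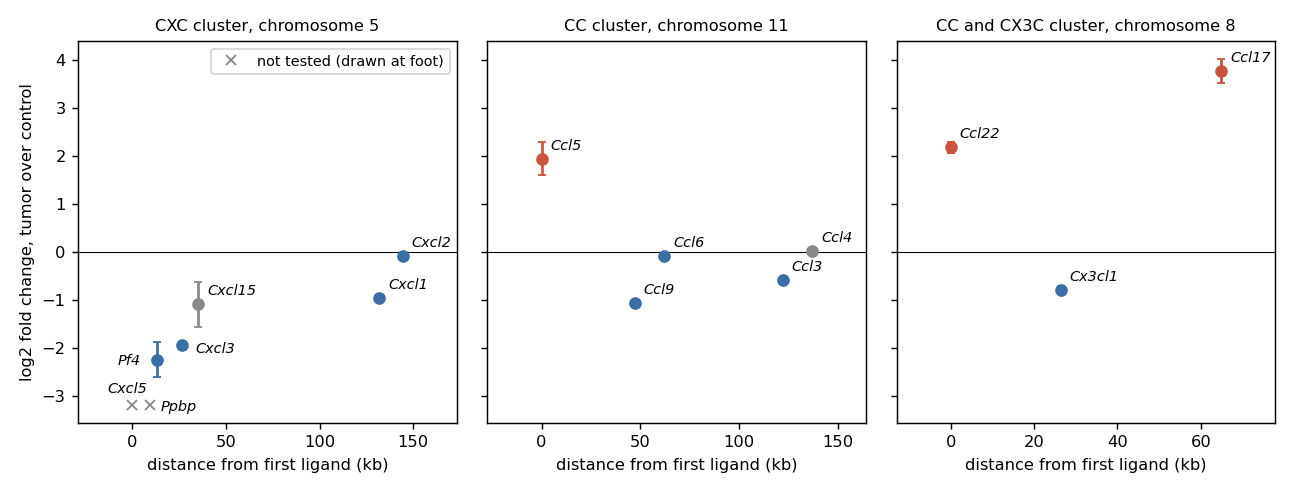
Log2 fold change (tumor over control, bars for the standard error) of ligands in 3 gene clusters against distance from the first ligand of the cluster in kb, red for higher, blue for lower and grey for not called. Crosses at the foot of the first panel mark Cxcl5 and Ppbp, which were not tested and have no value. The points rise from Pf4 to Cxcl2 on chromosome 5, and Cx3cl1 lies below 0 between Ccl22 and Ccl17 on chromosome 8.

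Both CCR4 ligands rose. Ccl17, also called TARC, had 17 and 9 counts in control and 194 and 188 in tumor libraries (0.739 ± 0.238 CPM against 10.4 ± 1.15 CPM, SD, n = 2). Both tumor values were more than 10 times each control value, and it rose 13.7-fold (log2 fold change 3.77 ± 0.25, edgeR adjusted p = 2.54e-13). Ccl22, also called MDC, had 136 and 116 counts in control and 607 and 609 in tumor libraries (7.3 ± 0.0668 CPM against 33.0 ± 2.84 CPM). It rose 4.52-fold with no overlap (log2 fold change 2.18 ± 0.11, edgeR adjusted p = 1.1e-15). Per gene length, Ccl17 stood below Ccl22 in control libraries (1.44 ± 0.463 against 3.14 ± 0.0287 RPKM) and above it in tumor libraries (20.2 ± 2.23 against 14.2 ± 1.22 RPKM).

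On the dendritic cell list, 4 of 8 genes were higher (Flt3, Ccr7, Cd209a and Fscn1) and 2 were lower (Clec9a and Batf3), with a summed level of 16.7 to 17.2 CPM in control and 48.8 to 51.8 CPM in tumor libraries. None of the 8 was at 0 in a control library, while Zbtb46 (27, 34, 48 and 29 counts) was not called, with a log2 fold change of 0.24. The part of dendritic cells in the levels of Ccl17 and Ccl22 was not tested. Ccr4, the receptor of both, had 1 and 6 counts in control and none in tumor libraries.

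The inflammatory CC ligands of the macrophage inflammatory protein group and Ccl5 gave mixed values. Of these 5, Ccl3, Ccl6 and Ccl9 were lower, Ccl5 was higher and Ccl4 was not called, and with scaling on AM identity genes Ccl6 and Ccl4 were higher. Ccl9, which attracts myeloid cells through CCR1, had 10188 and 8495 counts in control and 4410 and 5121 in tumor libraries (541 ± 3.72 CPM against 258 ± 4.47 CPM). It fell 2.1-fold without overlap (log2 fold change -1.07 ± 0.027, edgeR adjusted p = 6.75e-23). Ccl6, its close relative and a CCR1 ligand made in high amounts by macrophages and eosinophils, had 58578 and 48854 counts in control and 49955 and 58684 in tumor libraries (3110.2 ± 20.9 CPM against 2938 ± 75.0 CPM). The groups did not overlap, yet the fall was 1.06-fold (log2 fold change -0.08 ± 0.017, edgeR adjusted p = 0.000174), and it was -0.02 with total counts as library sizes (edgeR adjusted p = 0.472) and 0.41 with scaling on AM identity genes. The ratio of Ccl6 to Ccl9 was 5.75 in each control library and 11.3 and 11.5 in the tumor libraries. An antisense transcript, E230016K23Rik, covers Ccl6 on the other strand (142, 118, 111 and 120 counts), and whether counting used strand is not given in the sources used here.

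Ccl3 and Ccl4 encode MIP-1alpha and MIP-1beta, a related pair of inflammatory CC ligands, and their gene bodies are 13228 bases apart. Ccl3 had 12611 and 10389 counts in control and 7697 and 8667 in tumor libraries (666 ± 10.3 CPM against 443 ± 1.96 CPM). It fell 1.5-fold without overlap (log2 fold change -0.59 ± 0.024, edgeR adjusted p = 5.68e-18), and its log2 fold change was -0.09 with scaling on AM identity genes (edgeR adjusted p = 0.00275). Ccl4 had 973 and 833 counts in control and 923 and 1027 in tumor libraries (52.3 ± 0.616 CPM against 52.8 ± 0.679 CPM), and its groups overlapped. Its log2 fold change was 0.01 ± 0.063 (edgeR adjusted p = 0.882), and it was 0.51 with scaling on AM identity genes (edgeR adjusted p = 6.54e-09).

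Ccl5, also called RANTES and known from T cells, NK cells and activated macrophages, had 16 and 12 counts in control and 66 and 49 in tumor libraries (0.807 ± 0.0659 CPM against 3.15 ± 0.929 CPM). Both tumor values lay above both control values, and it rose 3.84-fold (log2 fold change 1.94 ± 0.34, edgeR adjusted p = 2.01e-05). Of 6 tested T cell and innate lymphoid cell genes 3 were higher (Cd3d, Cd3g and Trac), with a summed list level of 10.9 to 11.7 CPM in control and 21.0 to 22.02 CPM in tumor libraries. All 3 tested NK cell genes were higher (Nkg7, Gzma and Prf1), with 1.81 to 2.15 CPM against 9.02 to 10.3 CPM over the list. No gene of either list was at 0 in both control libraries, and their part in the level of Ccl5 was not tested.

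**Figure D4:**
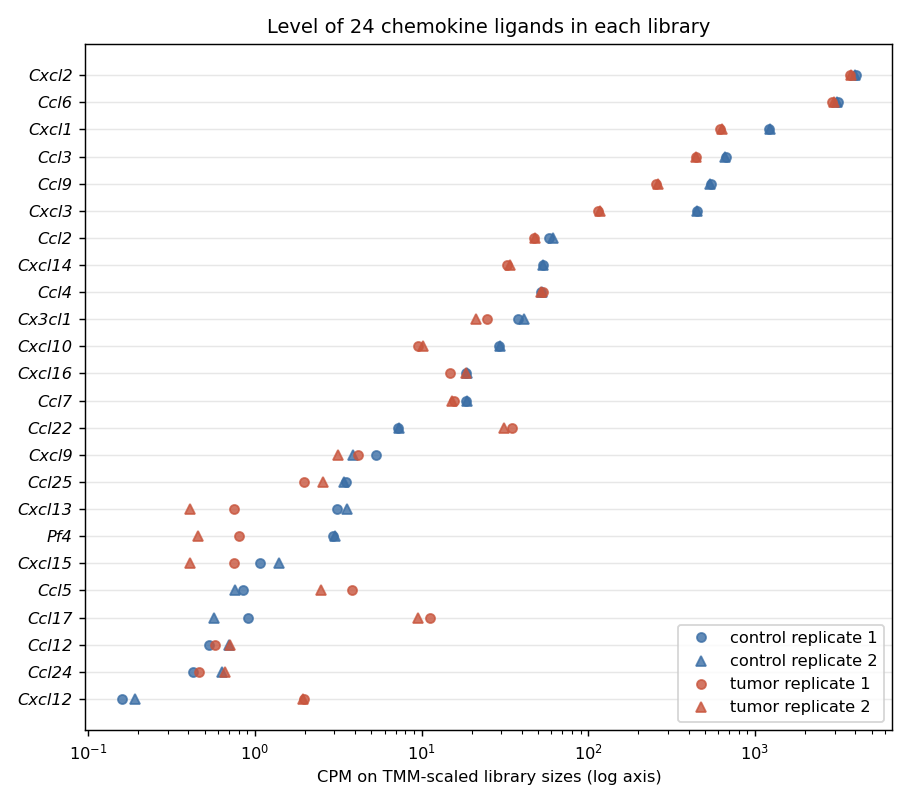
Level of the 24 tested chemokine ligands in each of the 4 libraries, in CPM on TMM-scaled library sizes (log axis), ordered by the control mean, with circles for replicate 1 and triangles for replicate 2. Control and tumor symbols are widely apart for Cxcl3, Cxcl10, Ccl22, Cxcl13, Pf4, Ccl17 and Cxcl12 and overlap for Ccl4, Cxcl16, Cxcl9, Ccl12 and Ccl24.

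The CCR2 ligands, which draw monocytes out of the bone marrow and into tissue, differed little. Ccl2, also called MCP-1 (chr11:82035571-82037453), had 1095 and 975 counts in control and 817 and 941 in tumor libraries (60.1 ± 2.38 CPM against 47.6 ± 0.55 CPM). It fell 1.26-fold (log2 fold change -0.34 ± 0.063, edgeR adjusted p = 5.09e-05), and was 0.16 with scaling on AM identity genes (edgeR adjusted p = 0.0255). Ccl7, also called MCP-3, lies 8258 bases further on and had 344 and 295 counts in control and 270 and 299 in tumor libraries. It was lower at a log2 fold change of -0.26 ± 0.11 (edgeR adjusted p = 0.0383), a call lost without control replicate 1 (edgeR adjusted p = 0.0946), without control replicate 2 (0.111) and without tumor replicate 2 (0.0937), and also with DESeq2 (adjusted p = 0.176), 10 counts per library throughout (0.0624) and total counts as library sizes (0.123). Ccl12, or MCP-5, had 10 and 11 counts in control and 10 and 14 in tumor libraries, at 0.09 ± 0.52 (edgeR adjusted p = 0.906).

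The interferon-induced CXCR3 ligands, which attract activated T cells and NK cells, gave unequal values. Cxcl10 (chr5:92346638-92348889) had 545 and 466 counts in control and 165 and 201 in tumor libraries (29.3 ± 0.319 CPM against 9.89 ± 0.506 CPM). It fell 2.96-fold without overlap (log2 fold change -1.56 ± 0.11, edgeR adjusted p = 4.2e-13). Cxcl9 (chr5:92321347-92328079), 18558 bases from Cxcl10, had 100 and 61 counts in control and 72 and 62 in tumor libraries, and the groups overlapped (log2 fold change -0.35 ± 0.22, edgeR adjusted p = 0.193). Cxcl10 lies within the span of Art3 on the other strand, which had 4, 1, 5 and 10 counts.

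Pf4 and Cxcl13 were low but had the largest falls in the fit of all 4 libraries. Without tumor replicate 2 the log2 fold change of Pf4 was -1.88, against -1.97 for Cxcl3. Pf4, platelet factor 4, is stored in platelet granules and is also expressed by some tissue macrophages. It had 55 and 48 counts in control and 14 and 9 in tumor libraries (2.99 ± 0.0758 CPM against 0.634 ± 0.247 CPM), and fell 4.74-fold without overlap (log2 fold change -2.24 ± 0.36, edgeR adjusted p = 5.53e-06). Cxcl13, the CXCR5 ligand that guides B cells (chr5:95956951-95961068), had 58 and 56 counts in control and 13 and 8 in tumor libraries (3.32 ± 0.321 CPM against 0.579 ± 0.243 CPM). It fell 5.75-fold without overlap (log2 fold change -2.52 ± 0.36, edgeR adjusted p = 8.16e-07). On the list of monocyte and interstitial macrophage genes, 4 of 7 tested were lower (Cx3cr1, C1qa, C1qb and C1qc) and 2 were higher (Ly6c2 and Ccr2), with a summed level of 34.7 CPM in both control libraries and 28.8 and 31.3 CPM in tumor libraries. None of its 8 genes was at 0 in the control libraries, while Folr2 had no count in the tumor libraries. On the megakaryocyte and platelet list, 1 of 3 tested genes was higher (Itga2b) and none was lower, with 5.71 to 6.21 CPM in control against 26.4 to 29.6 CPM in tumor libraries. Itga2b alone carried that rise, and the other 5 genes summed to 2.88 to 3.48 CPM in control and 2.45 to 3.12 CPM in tumor libraries. The part of these cells in the levels of Pf4 and Cxcl13 was not tested.

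Among the other CXC ligands, Cxcl12, the CXCR4 ligand of stromal and endothelial cells (chr6:117168535-117181367), had 3 counts in each control library and 34 and 38 in the tumor libraries. The control values were at the floor of 3 counts, so Cxcl12 was at least 10.2-fold higher in tumor libraries, with the floor taken per library (edgeR adjusted p = 2.49e-06). Fibroblast genes were higher in 4 of 5 tested (Col1a1, Col1a2, Col3a1 and Dcn), with a summed level of 3.55 to 4.05 CPM in control and 8.32 to 9.89 CPM in tumor libraries, and Lum had no count in either control library. Of 5 tested endothelial genes, 2 were higher (Pecam1 and Cldn5) and 1 was lower (Vwf), with a summed list level of 115 to 117 CPM in control and 105 CPM in tumor libraries. Vwf held most of that sum, and the other 5 genes summed to 4.37 to 5.71 CPM in control and 21.3 to 25.1 CPM in tumor libraries. Pecam1 carried most of the latter rise, and without it too the remaining 4 genes summed to 2.34 to 3.47 CPM in control and 3.77 to 4.91 CPM in tumor libraries. The part of both cell types in the level of Cxcl12 was not tested.

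Cxcl14, a ligand known mainly from epithelia (chr13:56288643-56296551), had 1003 and 841 counts in control and 561 and 664 in tumor libraries (53.4 ± 0.157 CPM against 33.1 ± 1.02 CPM). It fell 1.61-fold without overlap (log2 fold change -0.69 ± 0.07, edgeR adjusted p = 2.27e-09). On a list of 6 epithelial genes that 4T1 cells may also express, 2 of 4 tested were lower (Epcam and Cdh1) and 2 were higher (Krt8 and Krt18). The summed level was 135 to 139 CPM in control and 117 to 118 CPM in tumor libraries, and Krt14 had no count in either control library. Epcam (mean 53.4 CPM in control, 36.3 CPM in tumor) and Cdh1 (82.0 and 73.5 CPM) held nearly all of that sum. Krt18 went from a mean of 0.45 CPM in control to 6.01 CPM in tumor libraries, and Krt8 from 0.34 to 1.2 CPM. The part of this epithelial list in the level of Cxcl14, and that of the club and alveolar type 2 cell genes given above, was not tested. Cxcl16, the membrane-bound CXCR6 ligand and scavenger receptor, had 345 and 295 counts in control and 256 and 362 in tumor libraries, and the groups overlapped (log2 fold change -0.15 ± 0.11, edgeR adjusted p = 0.267). Without tumor replicate 2 the value was -0.33 (edgeR adjusted p = 0.0249), and with scaling on AM identity genes it was 0.34 (edgeR adjusted p = 0.00699). Transcripts of Cxcl16 share 16.9% of their windows of 50 bases with those of Zmynd15, which overlaps it on the other strand and had 30, 15, 27 and 20 counts.

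Cx3cl1, or fractalkine, is anchored in the membrane and acts through Cx3cr1. It had 713 and 653 counts in control and 427 and 418 in tumor libraries (39.7 ± 2.36 CPM against 22.98 ± 2.37 CPM). It fell 1.73-fold without overlap (log2 fold change -0.79 ± 0.087, edgeR adjusted p = 1.02e-08). With Ccl22 rising beside it, the ratio of Ccl22 to Cx3cl1 went from 0.191 and 0.178 in control to 1.42 and 1.46 in tumor libraries.

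Ccl25, the CCR9 ligand of thymus and gut epithelium, had 66 and 54 counts in control and 34 and 50 in tumor libraries and was lower at a log2 fold change of -0.61 ± 0.25 (edgeR adjusted p = 0.0417). The call was lost without control replicate 1 (edgeR adjusted p = 0.164), without control replicate 2 (0.103) and without tumor replicate 1 (0.182), and also under other settings, among them DESeq2 (adjusted p = 0.209), limma-voom (0.0516), total counts as library sizes (0.07) and scaling on AM identity genes (0.679). Its gene shares 204 bases with Elavl1 on the other strand, which had 1366 to 1844 counts. Ccl24, an eosinophil-attracting CCR3 ligand, had 8 and 10 counts in control and 8 and 13 in tumor libraries, and its groups overlapped (log2 fold change 0.11 ± 0.56, edgeR adjusted p = 0.886).

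The other 22 ligands did not reach the level needed for a test. Of these, 10 had at least 1 count, at most 8 in any library. Ccl8, a CCR8 ligand in mice, had 3 and 6 counts in control and none in tumor libraries, Ccl1, the other CCR8 ligand, had 2 in each control library and none in tumor libraries, and Ccl28 had 4, 1, 8 and 3. Ccl27a had 3, 0, 0 and 4, Xcl1 had 4 counts in tumor replicate 2 alone, Ccl26 had 2 in control replicate 1 alone, Cxcl17 had 1 count in each group, and a scaffold copy of Ccl21a had 1 count. The remaining 12 genes had no count in any library, among them every copy of Ccl11, Ccl19, Ccl20, Ccl21b, Ccl21c and Ccl27b. The eotaxin Ccl11 was thus not detectable above the floor at this depth. There 3 counts, the limit that a count of 0 allows, were 0.153 to 0.190 CPM. No such limit is given for the CCR7 ligands of lymph nodes (Ccl19 and the Ccl21 genes), which are annotated in more than 1 copy each. Reads that match several copies may have gone uncounted, which was not checked.

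Of 24 listed chemokine receptors 15 were tested, and 8 were higher and 1 was lower in tumor libraries, against 29.0% higher and 24.8% lower of all genes. Cxcr2, the receptor of the ELR CXC ligands and a neutrophil receptor, had 71 and 61 counts in control and 2556 and 2720 in tumor libraries (log2 fold change 5.22 ± 0.083). Ccr3, the eotaxin receptor of eosinophils, had 2 and 4 counts in control and 996 and 1137 in tumor libraries. Both receptors are markers of cell types whose gene lists were far higher in the tumor libraries, and the part of those cells was not tested. Others that rose included Ccr7 (2.28 on the log2 scale), Cxcr5 (2.02), Ccr2 (1.33), Cxcr4 (1.22) and Ccrl2 (0.33), and Cx3cr1 fell by 1.71. Cxcr5 is known from B cells, and 4 of 5 tested B cell genes were higher (summed list level 6.62 to 6.91 CPM in control, 12.7 to 13.6 CPM in tumor libraries), whose part in its rise was not tested. Ccr1, the receptor of Ccl3, Ccl6 and Ccl9, was not called (log2 fold change 0.06 ± 0.037, edgeR adjusted p = 0.172), nor were Ccr9, Ccr10, Cxcr1, Cxcr6 and Xcr1. Receptor and ligand went in opposite directions for Cxcr2 with Cxcl1 and Cxcl3, for Cxcr5 with Cxcl13 and, on TMM-scaled libraries, for Ccr2 with Ccl2 and Ccl7. They went in the same direction for Cxcr4 with Cxcl12 and for Cx3cr1 with Cx3cl1.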

How the data were processed

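RNA of purified AMs was isolated with TRIzol for NEBNext Ultra libraries. Per the study's methods and the submitters' processing notes, paired-end HiSeq reads were aligned with HISAT2 2.0.5 and counted per gene with featureCounts, and DESeq2 is also named in the notes. The genome build, annotation and strandedness of counting are not given in the sources used here. The deposited values are raw counts per gene, which the authors did not normalize, and the deposited table also holds gene lengths, from which RPKM was computed here. Reads of ligands that overlap another gene or share sequence with one may be split between them or left uncounted.

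The analysis used edgeR 4.0.16 under R 4.3.3. The function filterByExpr set the genes tested, at a minimum count of 10, library sizes were scaled by TMM, and the quasi-likelihood test (glmQLFit, glmQLFTest) was fitted with group as the only term, leaving 2 residual degrees of freedom. P-values were adjusted by Benjamini-Hochberg over all genes tested at a threshold of 0.05. The standard error was taken as log2 fold change over the root of F, and each SD is over 2 libraries. With 2 libraries per group no permutation of samples can reach the threshold, so the test borrows the spread from other genes. Where both libraries of a group had 3 counts or fewer, the fold is a bound from that floor. The test was checked on simulated counts before use.

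The chemokine ligands, roles and marker lists were chosen with earlier results of these data known. Every tested ligand and every tested receptor on the list was named, and marker genes were named beside a ligand whose level they bear on or where they had no count in the control libraries, except for items that are not reported here. Marker genes beside a ligand that did not move with it, and those without control counts, were chosen after their values were seen. Motifs were chosen after the fold changes were seen, and were searched on both strands in the 250 bases before each RefSeq start (GRCm38.p6). The alternatives were DESeq2 size factors, total counts as library sizes, scaling on the AM identity genes, no filter and a filter of 10 counts per library throughout, DESeq2 1.42.0 with its Wald test, limma-voom (limma 3.58.1), the replicate block, a fit of protein-coding genes, a fit without the 20 most counted genes, thresholds of 1 on the absolute log2 fold change and of 0.01 on the adjusted p, and leaving out each library in turn.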

Additional observations from a re-analysis of the deposited data

How the results depend on the processing

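At an adjusted p of 0.05, under each other fit in which they were tested, Ccl17, Ccl22, Ccl5, Cxcl12, Cxcl1, Cxcl3, Cxcl10, Cxcl13, Cxcl14, Ccl3, Ccl9, Cx3cl1 and Pf4 kept their direction and their call. The filter of 10 counts per library throughout left Ccl17, Cxcl12, Cxcl13, Pf4, Cxcl15 and Ccl24 untested, and the fit without the 20 most counted genes left out Cxcl2 and Ccl6. Ligands called higher were 4 with each library left out in turn, and ligands called lower 12 to 14. Over all genes the same omissions gave 3510 to 3956 higher and 3005 to 3514 lower.

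Ligands called higher numbered 2 when each library had to hold 10 counts or more, and 9 with scaling on the AM identity genes, and ligands called lower 9 with that scaling and 5 at an absolute log2 fold change of at least 1. Over all genes, the AM identity scaling gave 9966 higher and 723 lower, and the log2 fold change of at least 1 gave 1839 and 429. Higher calls were 53.9% of all calls on TMM and 93.2% on AM identity scaling, and 22.2% and 50% among the ligands. On that scaling Cxcl2 was at 0.40, Ccl6 at 0.41, Ccl2 at 0.16, Ccl7 at 0.23, Cxcl9 at 0.14 and Cxcl16 at 0.34 on the log2 scale. With total counts as library sizes 10 ligands were lower and 4 higher, and higher calls were 62.7% of all calls.

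Of the 6 ligands without a call, Ccl4, Ccl12 and Ccl24 changed sign around 0, Cxcl9 and Cxcl16 only with scaling on the AM identity genes, and Cxcl15 in none of the fits. Ccl4 was at -0.0033 with no filter and between -0.0094 (without control replicate 1) and 0.02270 (without tumor replicate 2) with a library left out, and at -0.0061 without tumor replicate 1. With a library left out, Ccl12 ranged from -0.11 (without control replicate 1) to 0.26 (without control replicate 2) and Ccl24 from -0.18 (without tumor replicate 2) to 0.38 (without control replicate 2). The causes of these changes were not tested.

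Replicate numbers are shared between the groups, but deviations of same-numbered libraries from their group means correlated at -0.00278, so the numbers mark no pairing. With the replicate block, 4 ligands were higher and 13 lower, and over all genes 4021 and 3425. Ccl25 lost its call with the block (-0.62, edgeR adjusted p = 0.053), and no other ligand did. Ligands with at most 8 counts in any library did not pass the filter, and tested ligands with no library over 70 counts carry standard errors of 0.25 to 0.56 on the log2 scale.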

Other observations

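Enzymes that trim or shed chemokines also differed between the groups, and all 6 on the list were called, against 53.8% of all genes tested. Dpp4, which removes the first residues of Cxcl10, Cxcl12, Ccl5 and Ccl22, had 13 and 7 counts in control and 148 and 180 in tumor libraries (log2 fold change 3.92 ± 0.27, edgeR adjusted p = 4.74e-13). Mmp9, a gelatinase that cleaves ELR CXC ligands, had 112 and 91 counts in control and 2110 and 2400 in tumor libraries (4.37 ± 0.078, edgeR adjusted p = 1.76e-26). Mmp8, which is also on the neutrophil marker list, rose by 0.92 and Mmp12, the macrophage elastase, by 0.32. Adam17, a sheddase of Cx3cl1 and Cxcl16, fell by 0.67 and Adam10 by 0.19, each with no overlap between groups, and the fall of Adam10 is smaller than the shift of 0.49 that scaling on AM identity genes gives the median gene. The neutrophil list was higher in the tumor libraries in 10 of 10 genes, and its part in the rise of Mmp8 and Mmp9 was not tested.

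Cxcl11, the other CXCR3 ligand, is annotated as a polymorphic pseudogene in the table and was therefore not counted among the ligands. It had 4 and 5 counts in control and 3 and 1 in tumor libraries.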
